A study of Mus musculus with 18 samples.

Results

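Solute carriers are membrane proteins that move amino acids, sugars, ions, metals, vitamins and metabolites across the plasma membrane and the membranes of organelles. They are named by family number, and a family mostly shares a fold and a class of substrate. In this study 159 solute carrier genes of mouse dendritic cells were examined, of 16614 genes in the expression table. They are the genes whose symbol follows the pattern of the Slc families and whose mean was at least 20 estimated counts over the 18 libraries. The pattern matched 281 genes, 112 of which had a lower mean, and 10 more were left out by name and are not analysed here. Those 10 include the glucose carriers Slc2a1 and Slc2a3 and the lactate carriers Slc16a1 and Slc16a3. Beyond the symbol, the members were chosen by the mean count alone. Members just inside it included Slc16a7, Slc2a9 and Slc22a4, with means of 22.7, 22.8 and 25.3 counts. Just outside were Slc6a20a, Slc28a2, Slc16a14 and Slc6a12, with 18.4, 17.0, 15.6 and 14.1 counts. A gene with few counts in one treatment could pass through the other. Slc7a3 was under 20 counts on average in both control groups, and 12 members were under 20 in both LPS groups, among them Slc26a11, Slc2a8 and Slc9a3r2. Of the 159, 155 encode carriers, which were sorted by family into 12 substrate classes. The other 4 share the symbol pattern only, namely the scaffold proteins Slc9a3r1 and Slc9a3r2, the kanadaptin gene Slc4a1ap and Slc7a6os.

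The cells were bone marrow-derived dendritic cells, grown for 7 to 10 days with GM-CSF (20 ng/ml) plus 100 ng/ml Flt3L and purified on Xcr1 by sorting or with beads. By its title, the series concerns STAT5, STAT3 and dendritic cell function. The samples were 5 KO and 5 WT samples given lipopolysaccharide (LPS), which bacteria carry and Toll-like receptor 4 senses, and 4 KO and 4 WT control samples. The labels name neither the deleted gene nor its mode of deletion, nor the strain and age of the mice, so the genotype could not be checked on its transcript. They give no LPS dose or time and do not tie replicates to cultures or animals, and each p therefore measures the spread between samples as deposited.

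Libraries held 25590104 to 27375189 estimated counts. CPM below are counts scaled by library size and the trimmed mean of M-values (TMM). All 159 genes passed the filter on low counts, and a gene was called at an edgeR quasi-likelihood adjusted p under 0.05 over 11989 genes. The summed level of 12 cDC1 markers lay at 6255 to 7182 CPM in KO LPS, 6614 to 8056 in WT LPS, 8295 to 9426 in KO control and 8772 to 9053 CPM in WT control libraries, with none of the 12 at 0. The 13 markers of monocytes and macrophages, among them Lyz2, summed to 1311 to 2011 CPM in KO LPS and 1485 to 1930 CPM in WT LPS libraries, against 2026 to 2298 CPM in KO control and 1918 to 2025 CPM in WT control libraries, none of them at 0. Of these 13, 8 were called higher and 4 lower with LPS in KO cells and 8 higher and 2 lower in WT cells, with median log2 fold changes of 0.70 and 1.08, while the abundant Lyz2 had -0.34 and -0.14. The highest sum of each LPS group was in its replicate 2. These 2 libraries have the library numbers 5 and 7, and no control library has a number between 5 and 8. The 10 neutrophil markers summed to at most 4.44 CPM except in 2 libraries, with 90.2 CPM in WT LPS replicate 5 and 31.1 CPM in WT control replicate 4. The 6 plasmacytoid DC markers summed to 537 to 591 CPM in KO LPS and 466 to 671 CPM in WT LPS libraries, against 84.4 to 90.8 CPM in KO control and 80.5 to 81.3 CPM in WT control libraries. Most of that LPS sum was Bst2, at 381 CPM in KO LPS and 365 CPM in WT LPS cells, whereas the defining Siglech averaged 1.18 and 1.23 CPM there, against 3.57 CPM in KO control and 3.76 CPM in WT control cells. The 9 lymphocyte markers summed to 9.88 to 11.4 CPM in KO LPS and 5.77 to 8.73 CPM in WT LPS libraries, against at most 2.54 CPM in the controls. Mast cell and basophil markers, of which 5 of 7 are in the table, summed to 157 to 177 CPM in KO LPS and 186 to 196 CPM in WT LPS libraries, against 257 to 294 CPM in KO control and 204 to 245 CPM in WT control libraries. The 8 cDC2 markers summed to 136 to 186 CPM in KO LPS and 173 to 258 CPM in WT LPS libraries, against 199.7 to 208 CPM in KO control and 201 to 238 CPM in WT control libraries. The 11 markers of erythroid cells and platelets summed to at most 24.4 CPM, in WT LPS replicate 5. The part of these cells in the changes with LPS was not tested. In bulk RNA, fewer cells of a type and less RNA per cell cannot be told apart.

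In conventional dendritic cells of type 1 (cDC1), which take up dead cells and present their antigens to CD8+ T cells, carriers supply the amino acids and glucose used on activation. Others empty lysosomes of digested protein, nucleic acid and lipid, and set the metal and proton content of endosomes. Amino acid carriers of the plasma membrane and the lysosome also feed the kinase mTORC1, which adjusts growth to supply.

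Promoter sequences are shown for 4 genes that differed between KO and WT cells with LPS. They are 300-base windows around the gene's start, of the RefSeq build GRCm38.p6, whereas the deposited table was made on GRCm39. Slc38a9, Slc22a15 and Slc46a3 are the called genes whose window holds TTCNNNGAA, the core letters of the sites that STAT proteins bind, and Slc12a9 had the largest difference between genotypes. Capitals mark TTCNNNGAA, and the strand of the gene is given.
Slc38a9, chr13:112660516-112660815, plus strand: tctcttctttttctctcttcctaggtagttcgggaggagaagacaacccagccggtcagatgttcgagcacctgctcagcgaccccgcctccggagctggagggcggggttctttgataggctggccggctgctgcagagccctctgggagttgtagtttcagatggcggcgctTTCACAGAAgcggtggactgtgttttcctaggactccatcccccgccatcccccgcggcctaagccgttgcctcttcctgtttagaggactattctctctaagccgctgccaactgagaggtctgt
Slc22a15, chr3:101924404-101924703, minus strand: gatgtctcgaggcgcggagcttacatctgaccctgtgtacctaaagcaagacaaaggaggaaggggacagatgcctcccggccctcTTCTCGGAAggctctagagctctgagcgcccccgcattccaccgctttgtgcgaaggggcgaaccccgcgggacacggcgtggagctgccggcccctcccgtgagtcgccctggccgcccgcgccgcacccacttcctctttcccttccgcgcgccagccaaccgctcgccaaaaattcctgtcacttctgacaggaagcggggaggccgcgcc
Slc46a3, chr5:147894766-147895065, minus strand: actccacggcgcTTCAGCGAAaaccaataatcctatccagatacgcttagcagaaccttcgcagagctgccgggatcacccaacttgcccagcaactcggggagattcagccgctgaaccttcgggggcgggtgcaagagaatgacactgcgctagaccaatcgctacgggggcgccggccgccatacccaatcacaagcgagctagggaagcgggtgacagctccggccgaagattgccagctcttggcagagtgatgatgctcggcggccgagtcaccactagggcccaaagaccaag
Slc12a9, chr5:137333533-137333832, minus strand: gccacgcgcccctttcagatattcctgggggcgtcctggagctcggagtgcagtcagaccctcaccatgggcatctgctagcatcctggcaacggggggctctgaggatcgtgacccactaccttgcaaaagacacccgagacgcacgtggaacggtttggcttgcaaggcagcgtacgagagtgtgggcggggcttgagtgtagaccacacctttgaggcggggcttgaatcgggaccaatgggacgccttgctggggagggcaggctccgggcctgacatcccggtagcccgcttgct
Of the 159 members, 118 matched a window by gene ID, with 159 windows among them. The motif, searched on both strands, was found in 4.40% of these windows and in 8.30% of all 32851 windows. The motif's first base lay 76 bases before the start in Slc38a9, 164 in Slc22a15 and 238 in Slc46a3. Of the 22 genes called between genotypes with LPS, 18 matched a window and 3 held the motif. CACGTG, the E-box read by basic helix-loop-helix factors, was in 15.7% of the members' windows and 7.15% of all windows, and of the 18 genes only Slc12a9 held it. TGATGNAA, the core of the amino acid response element, was in 4.40% and 3.97%. GGGNNTTTCC, GAAANNGAAA, TGACGTCA and TGANNNAGCA, also searched on both strands, were in 1.26%, 1.26%, 1.89% and 3.77% of the members' windows and 1.63%, 3.44%, 1.79% and 4.78% of all windows. None of these 4 was in a window of the 18 genes. A match of letters is a description of the window and not a bound site.

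Levels of different genes were compared per length, in the TPM values the authors deposited, and only within a group. The adenine nucleotide carrier of the mitochondrial inner membrane Slc25a5 and the mitochondrial phosphate carrier Slc25a3 stood highest by mean TPM over the 18 libraries. In KO LPS cells Slc25a5 had 411 ± 12.8 TPM and Slc25a3 288 ± 10.8 TPM (SD, n = 5). With LPS the hexose carrier family member Slc2a6 was between them, at 332 ± 21.4 TPM in KO and 317 ± 9.88 TPM in WT cells. Slc2a6 had 35.2 ± 4.05 TPM in KO control and 36.2 ± 4.08 TPM in WT control cells (SD, n = 4 each). The taurine carrier Slc6a6 came next with LPS, at 224 ± 11 TPM in KO and 213 ± 23.5 TPM in WT cells. All 159 transcripts together made up 3336 to 3451 TPM in KO LPS, 3172 to 3634 in WT LPS, 4196 to 4532 in KO control and 4589 to 4828 TPM in WT control libraries.

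**Figure D1:**
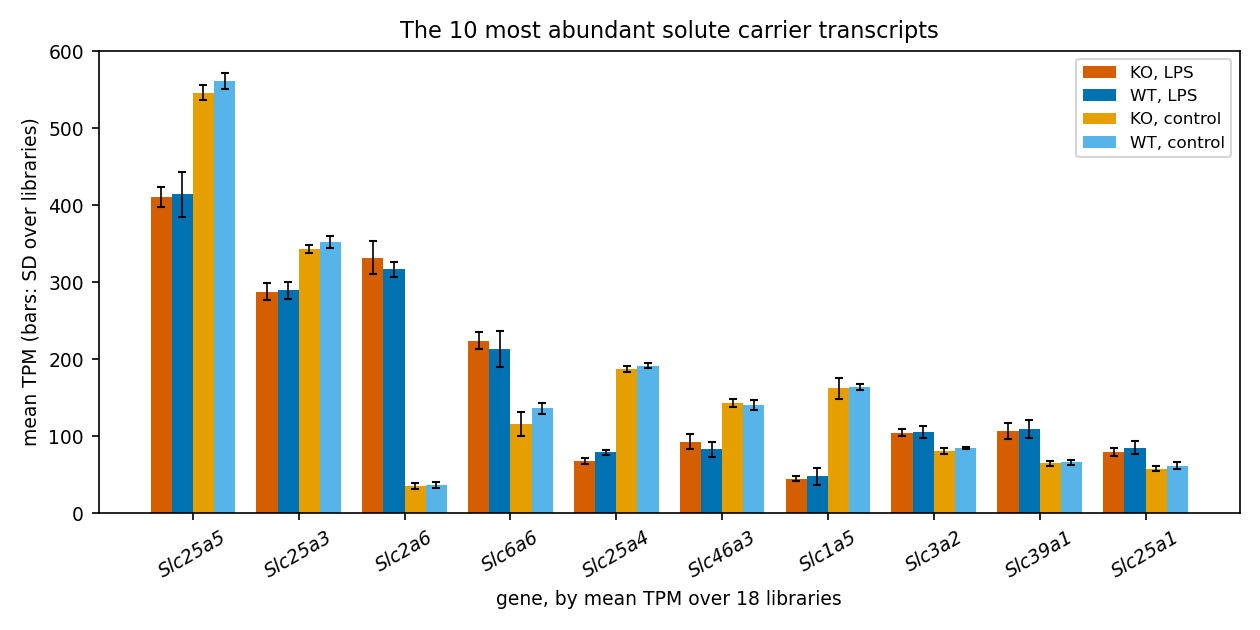
Mean TPM of the 10 solute carrier genes with the highest mean over 18 libraries, by group (KO LPS n = 5, WT LPS n = 5, KO control n = 4, WT control n = 4; bars show the SD over libraries). TPM orders the genes within a group; between groups it follows the library total, so Slc25a5 is lower in TPM and higher in TMM-scaled CPM with LPS.

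The first question of the design is what LPS changed in cells of each genotype. In KO cells 55 of the 159 genes were higher and 80 lower with LPS, against 40.0% higher and 46.2% lower of all genes tested. In WT cells 61 were higher and 81 lower, against 40.7% and 44.7% of all genes. The share of solute carriers called in each direction was thus near that of all genes. The median log2 fold change of the 159 was -0.26 in KO and -0.22 in WT cells, and that of all genes was -0.10 and -0.06. At least 2-fold differences were called for 23 higher and 50 lower genes in KO cells, against 20.0% and 26.2% of all genes, and for 23 and 48 in WT cells, against 19.4% and 23.9%. The 12 members under 20 counts in both LPS groups passed the mean through their controls, and Slc7a3 through LPS. The rule thus favours their direction, which gives no support to these counts or to those of their classes below. Called genes whose LPS and control libraries did not overlap numbered 52 higher and 78 lower in KO cells, against 37.6% and 43.8% of all genes, and 49 and 74 in WT cells, against 36.5% and 41.2%. Of the 159 genes, 129 were called in the same direction in both genotypes and none in opposite directions, while 6 were called in KO cells alone, 13 in WT cells alone and 11 in neither. Changes are relative to the TMM scale. Scaling by library totals moved the median of all genes by -0.78 in KO and -0.74 in WT cells, and 24 of 55 and 31 of 61 higher genes then had a negative fold change. All of these stayed above the median of all genes under that scaling, and no lower gene turned positive. A downward shift nearly common to all genes gives both by itself, so neither is a check on the calls.

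**Figure D2:**
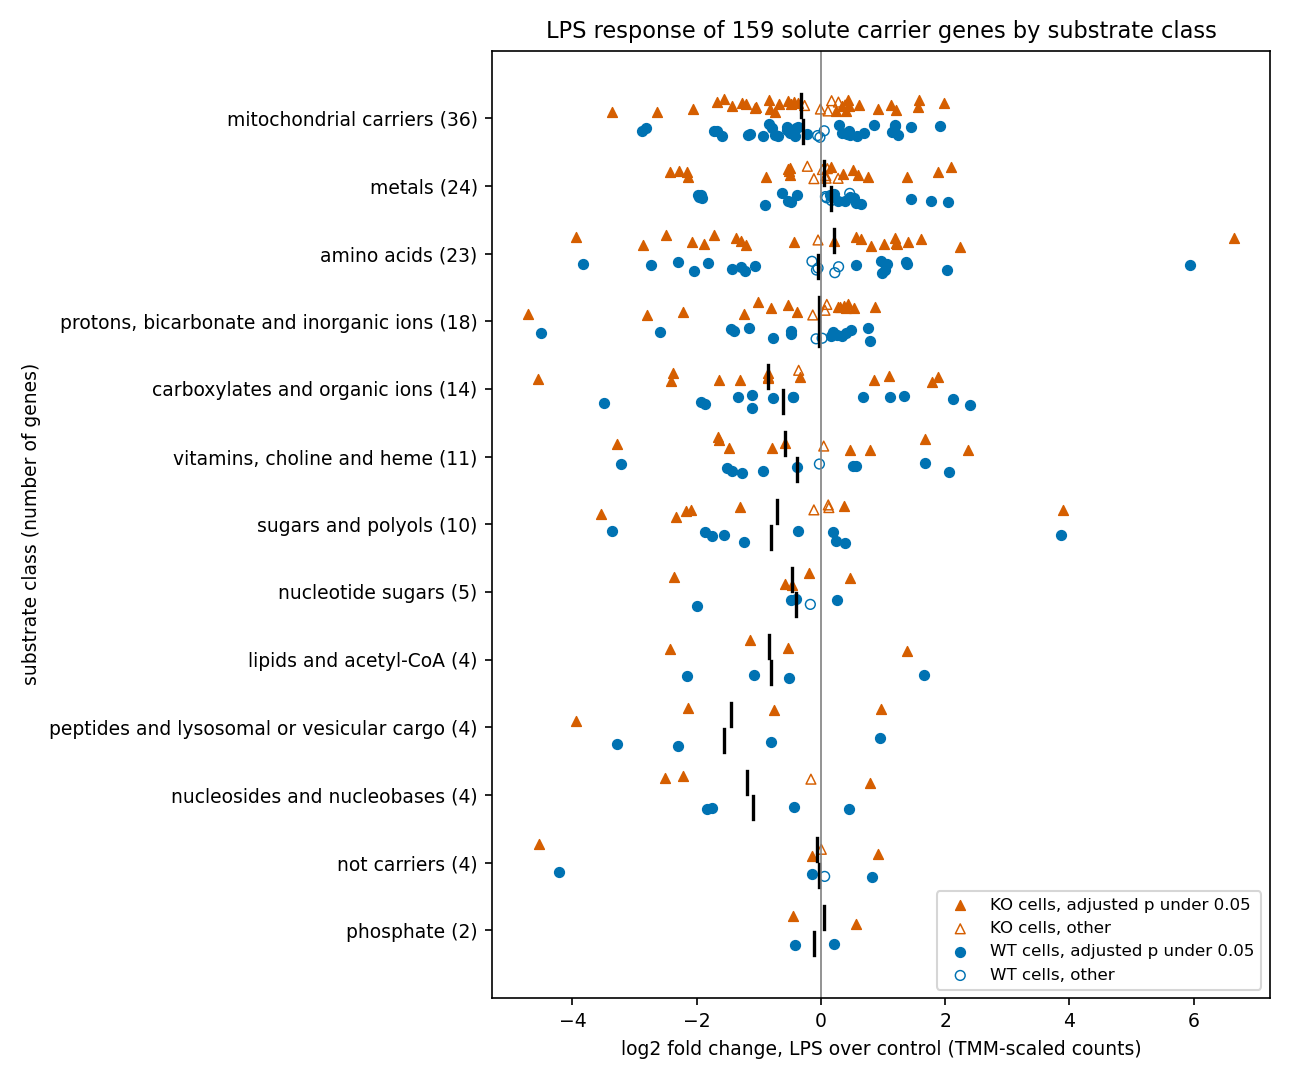
Log2 fold change of LPS over control for each of the 159 genes, by substrate class (number of genes in brackets), in KO cells (triangles) and WT cells (circles); filled symbols are called and black ticks are class medians. Every class of 4 or more genes holds called genes on both sides of 0, and Slc7a3 and Slc2a6 lie farthest to the right.

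Of the 23 amino acid carriers, 12 were higher and 10 lower with LPS in KO cells (all genes: 40.0% and 46.2%). In WT cells 9 were higher and 9 lower (all genes: 40.7% and 44.7%). The carriers of large neutral amino acids moved in both directions. Slc3a2, the heavy chain that brings several Slc7 carriers to the surface, had 172, 185, 167, 169.5 and 172 CPM in KO LPS and 192, 166, 154, 167 and 166 CPM in WT LPS libraries, against 88.5, 80.6, 81.6 and 90.4 CPM in KO control and 85.6, 82, 80.3 and 83.4 CPM in WT control libraries. All LPS libraries lay above all control libraries, with a log2 fold change of 1.02 ± 0.06 in KO and 1.03 ± 0.06 in WT cells (standard error; edgeR adjusted p = 1.5e-12 and 1.6e-12). Its partner Slc7a5, which imports leucine and other large neutral amino acids, averaged 106 ± 10.0 CPM in KO LPS and 112 ± 27.8 CPM in WT LPS cells, against 46.7 ± 5.99 and 53.6 ± 7.84 CPM in their controls (SD). Slc7a5 rose by 1.19 and 1.06 on the log2 scale, and WT LPS replicate 2 had the lowest LPS level, 72.1 CPM. The WT call of Slc7a5 was lost with library totals as the scale (edgeR adjusted p = 0.058). Slc7a8, another partner with a similar range of substrates, rose by 2.23 ± 0.07 in KO and 2.03 ± 0.07 in WT cells. Slc43a2, which carries large neutral amino acids without a heavy chain, fell to 9.11, 13.6, 8.05, 9.17 and 10.1 CPM in KO LPS and 9.81, 13.6, 9.59, 10.4 and 10.7 CPM in WT LPS libraries, against 156, 168, 160.5 and 133 CPM in KO control and 142, 160.4, 156 and 156 CPM in WT control libraries. That is a log2 fold change of -3.95 ± 0.12 in KO and -3.83 ± 0.12 in WT cells (edgeR adjusted p = 7.5e-17 and 1.1e-16).

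Of the glutamine carriers named here, Slc38a1 and Slc1a5 fell and Slc38a2 rose. Slc38a1, a sodium-coupled glutamine importer, had 28.7, 33.5, 30.3, 28.8 and 27.9 CPM in KO LPS and 35.9, 29.5, 33.8, 37.4 and 32 CPM in WT LPS libraries, against 135, 128, 131 and 111 CPM in KO control and 138, 134, 146 and 136 CPM in WT control libraries, a fall of 2.08 and 2.04 on the log2 scale. The exchanger Slc1a5 was at 92.3 ± 6.13 CPM in KO LPS and 94.4 ± 19.1 CPM in WT LPS cells, against 212 ± 12.4 and 197 ± 5.23 CPM in the controls, with log2 fold changes of -1.20 and -1.06. Slc38a2, of the same family as Slc38a1, rose by 0.80 in KO and 0.56 in WT cells. When library totals set the scale its WT value was -0.19, and its KO value of 0.02 was not called. Of the lysosomal carriers, Slc36a1, which exports small amino acids with protons, fell by 2.86 in KO and 2.74 in WT cells.
Slc38a9, the lysosomal arginine sensor of mTORC1, fell by 1.72 and 1.43. Slc66a1, the lysosomal exporter of cationic amino acids, is in another class and rose by 0.97 and 0.95. With library totals as the scale it was not called in either genotype.

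The cationic amino acid carrier Slc7a3 went furthest up. It had 15.1, 11.3, 7.02, 11 and 10.7 CPM in KO LPS and 9.72, 11.2, 3.59, 6.44 and 8.41 CPM in WT LPS libraries, while the KO control libraries held 2 to 6 and the WT control libraries 3 to 8 counts each. Its log2 fold changes of 6.66 ± 0.41 in KO and 5.93 ± 0.41 in WT cells rest on those few control counts. Slc6a6 reached 1184, 1115, 1013, 1071 and 1139 CPM in KO LPS and 904, 1255, 939, 930.4 and 1067 CPM in WT LPS libraries, against 392, 373, 377 and 303 CPM in KO control and 376, 394, 397 and 394 CPM in WT control libraries. It rose 3.06-fold in KO and 2.61-fold in WT cells with no overlap of treatments. Slc7a11, the cystine and glutamate exchanger that feeds glutathione synthesis, was at 9.98, 18, 7.81, 9.32 and 9.62 CPM in KO LPS and 14.9, 16.9, 10.4, 12.3 and 10.6 CPM in WT LPS libraries, against 5.61, 3.71, 5.41 and 3.91 CPM in KO control and 5.04, 4.31, 5.39 and 5.4 CPM in WT control libraries. Replicate 2 was the highest library of both LPS groups. The log2 fold change was 1.23 ± 0.21 in KO and 1.37 ± 0.21 in WT cells. The creatine carrier Slc6a8 was not called, with values of -0.05 and -0.07. With library totals as the scale it was called lower in both genotypes, at -0.83 and -0.82. The median of all genes was then -0.88 and -0.80.

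**Figure D3:**
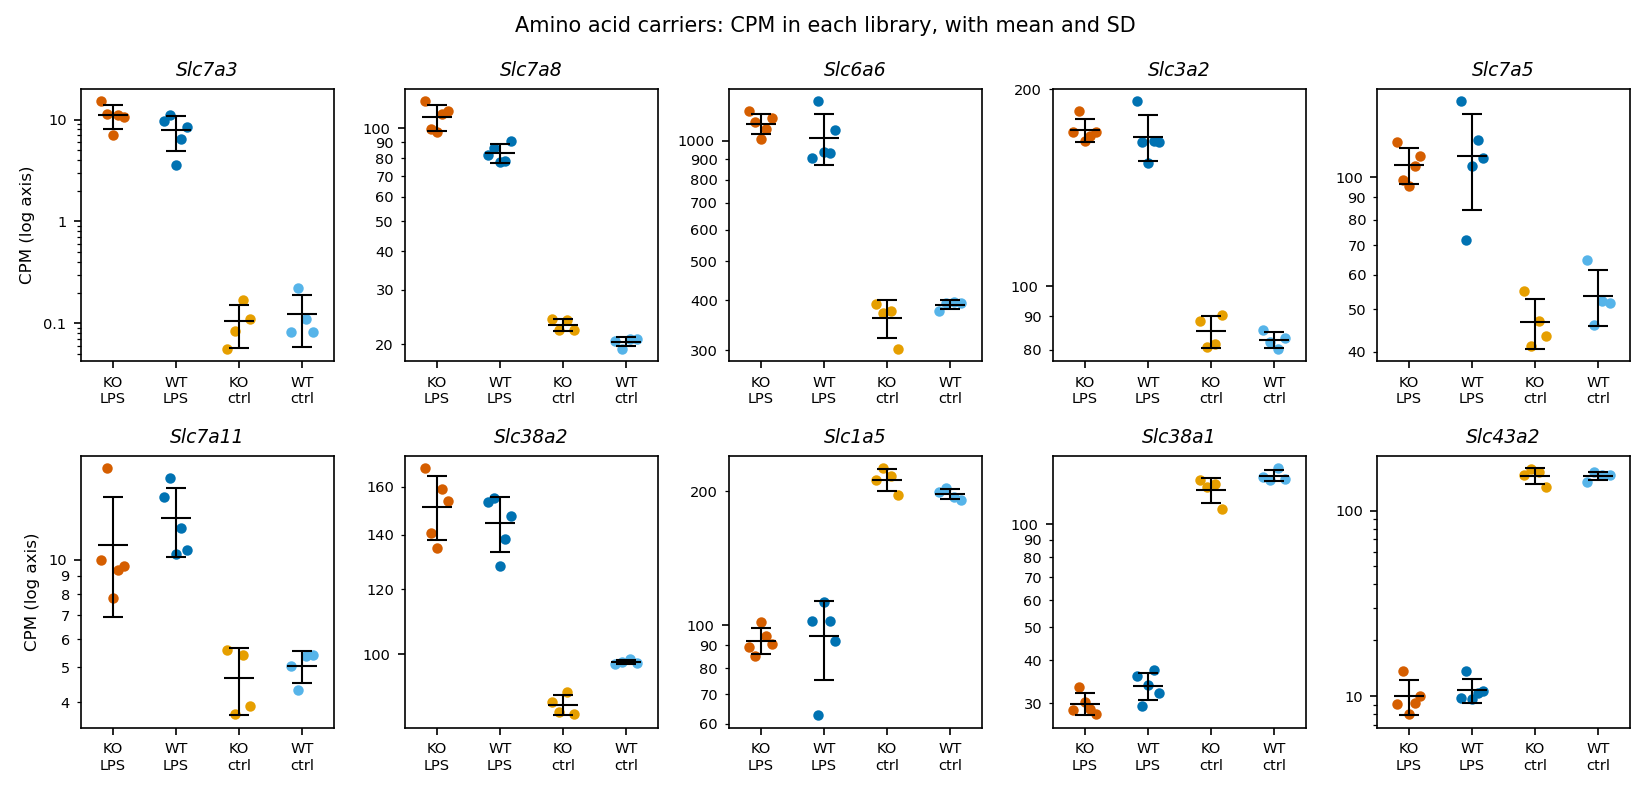
CPM of 10 amino acid carriers in each library, on log axes, with group mean and SD (KO LPS n = 5, WT LPS n = 5, KO control n = 4, WT control n = 4). For the first 7 genes every LPS library lies above every control library, and for Slc1a5, Slc38a1 and Slc43a2 every LPS library lies below.

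Genes that work with these carriers were counted from lists of the same pathways. Of all genes tested, 40.0% were higher and 46.2% lower with LPS in KO cells, and 40.7% and 44.7% in WT cells. Of 29 tested genes of amino acid supply and sensing, 16 were higher and 12 lower with LPS in KO cells, and 16 were higher and 11 lower in WT cells. The transcription factor Atf4, which answers amino acid shortage, rose by 2.04 in KO and 1.99 in WT cells, and Sesn1, of the leucine-sensing sestrins, fell by 2.11 and 2.22. Of 15 tested genes of cystine and glutathione, 12 were higher and 3 lower in KO and 11 were higher and 2 lower in WT cells. Chac1, which degrades glutathione, rose by 4.70 and 3.61, with control means under 1 CPM, and the transcription factor Nfe2l2, an inducer of Slc7a11, rose by 3.21 and 3.17.

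Of the 10 carriers of sugars and polyols, 2 were higher and 5 lower with LPS in KO cells (all genes: 40.0% and 46.2%). In WT cells 4 were higher and 6 lower (all genes: 40.7% and 44.7%). Slc2a6 had 575, 504, 454, 505 and 515 CPM in KO LPS and 504, 504, 428, 445 and 478 CPM in WT LPS libraries, against 37.6, 31.1, 36.4 and 32.1 CPM in KO control and 36.9, 28.5, 29.6 and 34.6 CPM in WT control libraries. The treatments were far apart in both genotypes, 14.9-fold in KO and 14.6-fold in WT cells (edgeR adjusted p = 4.8e-18 and 6e-18). Slc2a8, another hexose carrier of intracellular membranes, fell by 3.54 and 3.36 to under 1 CPM. Slc2a8 and Slc2a9 passed the mean count through their controls, so the rule favours their direction. Slc50a1, the animal member of the SWEET sugar carriers, fell by 2.33 and 1.75, and Slc45a4 fell by 2.17 and 1.87. The sugar phosphate exchanger Slc37a2 rose by 0.37 and 0.39, and Slc37a3 rose in WT cells by 0.25 and had 0.13 in KO cells. The WT call of Slc37a3 was lost without the filter on low counts and in 4 of 18 fits that left out 1 library, namely WT LPS replicate 3 or 4 or WT control replicate 1 or 3, with an edgeR adjusted p of up to 0.088. With library totals as the scale Slc37a2 was at -0.41 and -0.36, and Slc37a3 in WT cells at -0.49.

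Metal carriers, 24 in all, were higher with LPS in 8 cases and lower in 9 in KO cells (all genes: 40.0% and 46.2%). In WT cells 11 were higher and 9 lower (all genes: 40.7% and 44.7%). The iron genes moved in opposite directions. Slc11a2, which brings ferrous iron into the cytosol, had 52.8, 48.2, 45.4, 49.6 and 52.1 CPM in KO LPS and 50.3, 54.7, 42.9, 44.3 and 48.3 CPM in WT LPS libraries, against 13.5, 13.2, 14.1 and 13.2 CPM in KO control and 14.3, 13.6, 14.8 and 13.7 CPM in WT control libraries. The rise was 1.88 ± 0.07 in KO and 1.77 ± 0.07 in WT cells on the log2 scale. Slc40a1, or ferroportin, the exporter of iron from the cell, fell to 1.84, 2.18, 1.24, 1.75 and 1.7 CPM in KO LPS and 1.97, 2.09, 1.05, 1.71 and 1.47 CPM in WT LPS libraries, against 10.6, 7.11, 8.39 and 11.3 CPM in KO control and 7.16, 4.73, 5.42 and 8.51 CPM in WT control libraries. Its log2 fold change was -2.42 ± 0.21 in KO and -1.96 ± 0.21 in WT cells. Slc11a1, which removes metals from phagosomes, was not called, at 12.9, 22.6, 9.83, 10.2 and 13.7 CPM in KO LPS and 14, 22.4, 10.5, 11.4 and 15.1 CPM in WT LPS libraries, against 11.4 ± 1.38 CPM in KO control and 10.6 ± 1.33 CPM in WT control cells. Both replicate 2 LPS libraries, in which the monocyte and macrophage markers were highest, held its highest values, and the part of those cells in it was not tested. With library totals as the scale Slc11a1 was called lower in KO cells, at -0.50, and not called in WT cells, at -0.30. Slc25a37, the importer of iron into mitochondria, fell by 1.06 and 0.84. Of 13 tested genes of iron handling outside the carriers, 7 were higher and 3 lower in KO and 7 were higher and 4 lower in WT cells. The shares of all genes were 40.0% higher and 46.2% lower in KO and 40.7% and 44.7% in WT cells. The ferritin light chain Ftl1 rose by 1.90 and 1.77, and the transferrin receptor Tfrc fell by 1.86 and 1.79.

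Zinc carriers that empty the cytosol and those that fill it were found on both sides. Slc30a4, which moves zinc out of the cytosol, rose to 39.1 ± 1.67 CPM in KO LPS and 41 ± 1.83 CPM in WT LPS cells, against 9.13 ± 0.846 and 9.93 ± 0.544 CPM in the controls. Slc39a1, which brings zinc in, rose by 1.38 ± 0.07 in KO and 1.45 ± 0.07 in WT cells. Slc39a10, an importer of the same family, fell by 2.28 and 1.97, with 7.32 to 9.29 CPM in KO LPS and 7.93 to 9.77 CPM in WT LPS libraries against at least 34.5 CPM in every control library. Slc30a1, the zinc exporter of the plasma membrane, rose by 0.36 and 0.47, and was at -0.42 and -0.28 with library totals as the scale. Slc39a14 rose in WT cells by 0.21, which was -0.54 on that scale, and was not called in KO cells, at 0.10. Slc41a3, of a family of magnesium carriers, fell by 2.16 and 1.91.

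The 36 mitochondrial carriers divided into 12 higher and 18 lower genes with LPS in KO cells (all genes: 40.0% and 46.2%). In WT cells 14 were higher and 19 lower (all genes: 40.7% and 44.7%). The ATP-magnesium and phosphate exchanger Slc25a25 rose by 1.59 ± 0.05 in KO and 1.45 ± 0.05 in WT cells. Slc25a1, which exports citrate for lipid and histone acetylation, had 92.3, 85.2, 100.3, 93.9 and 89.8 CPM in KO LPS and 102, 86.5, 100.2, 94.4 and 92.3 CPM in WT LPS libraries, against 44.7, 41.2, 41.4 and 42.4 CPM in KO control and 46.7, 43, 38.9 and 37.8 CPM in WT control libraries. All LPS libraries were higher, by 1.12 and 1.19. The carnitine and acylcarnitine carrier Slc25a20 rose by 0.91 and 1.24, and was not called in KO cells with library totals as the scale. The deepest falls among genes that reached 5 CPM were those of Slc25a16, by 2.06 and 1.67, the folate carrier Slc25a32, by 1.67 and 1.58, and the ornithine carrier Slc25a15, by 1.57 and 1.71. Slc25a4, a close paralog of Slc25a5, fell by 0.83 and 0.55. The labels do not describe how shared reads were assigned, and the split between Slc25a4 and Slc25a5 is uncertain.

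Of the 18 carriers of protons, bicarbonate and inorganic ions, 7 were higher and 8 lower in KO cells (all genes: 40.0% and 46.2%). In WT cells 8 were higher and 8 lower (all genes: 40.7% and 44.7%). Slc26a11, an anion carrier, fell to 0.307 to 0.802 CPM in KO LPS and 0.095 to 0.806 CPM in WT LPS libraries, against 11.9 to 13.3 CPM in KO control and 11.4 to 13.2 CPM in WT control libraries. It passed the mean count through its controls, so the rule favours this direction. Slc4a2, which exchanges chloride for bicarbonate, rose by 0.88 and 0.75. Slc4a8, a sodium-driven relative, rose by 0.44 and 0.79, and the sulfate carrier Slc26a2 by 0.53 and 0.49. The KO call of Slc4a8 was lost without KO control replicate 4, at an edgeR adjusted p of 0.068. With library totals as the scale Slc4a8 in KO cells was at -0.34, and Slc26a2 at -0.25 and -0.26. Slc4a2 in both genotypes and Slc4a8 in WT cells were then not called.

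Carboxylates and organic ions have 14 carriers here, 4 higher and 9 lower with LPS in KO cells (all genes: 40.0% and 46.2%). In WT cells 5 were higher and 9 lower (all genes: 40.7% and 44.7%). Slc22a5, the carnitine importer of the plasma membrane, had 86.7, 91, 104, 96.8 and 91.7 CPM in KO LPS and 139, 86.4, 159.8, 143 and 127 CPM in WT LPS libraries, against 27.1, 27.3, 25.4 and 28.9 CPM in KO control and 24.4, 24.6, 24.1 and 25.8 CPM in WT control libraries. The rise was 3.46-fold in KO and 5.3-fold in WT cells. Its close relative Slc22a21 rose by 1.09 and 1.33, and reads that the pair share could have been split between them. Slc22a15 had 15.5 ± 1.43 CPM in KO LPS and 20.3 ± 1.52 CPM in WT LPS cells, against 4.21 ± 0.335 and 4.64 ± 0.687 CPM in the controls, a rise of 1.88 and 2.13. The urea channel Slc14a1 fell by 2.41 and 1.86, Slc16a13 of the monocarboxylate family by 2.38 and 1.93, and Slc10a3 by 1.30 and 1.11.

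Of the 11 carriers of vitamins, choline and heme, 4 were higher and 6 lower in each genotype. Among all genes 40.0% were higher and 46.2% lower in KO and 40.7% and 44.7% in WT cells. Slc49a4, a lysosomal member of its family, had 26.3, 17.5, 13.7, 18.3 and 19.1 CPM in KO LPS and 13.7, 22.8, 11, 11.3 and 16.1 CPM in WT LPS libraries, against 3.66 ± 0.564 CPM in KO control and 3.56 ± 0.488 CPM in WT control cells, and WT LPS replicate 2 had the highest of the WT values. The riboflavin carriers moved apart, Slc52a3 rising by 1.68 and 1.67 and Slc52a2 falling by 1.66 and 1.43. Slc19a1, which imports reduced folates and, in human cells, cyclic dinucleotides, fell to 1.05 to 1.20 CPM in KO LPS and 0.715 to 1.50 CPM in WT LPS libraries, against 10.4 to 11.9 CPM in KO control and 9.61 to 10.7 CPM in WT control libraries. The ascorbate importer Slc23a2 rose by 0.79 and 0.52, but with library totals as the scale it was not called in KO cells and was at -0.23 in WT cells. The heme carrier Slc48a1 fell by 1.47 and 1.27, and the choline carrier Slc44a1 rose by 0.47 and 0.56, values that were -0.31 and -0.19 with library totals as the scale. Slc46a3 of the lysosome, at 174 CPM in KO LPS and 149.7 CPM in WT LPS cells, was not called for LPS in either genotype. With library totals as the scale Slc46a3 was called lower in both, at -0.74 and -0.77. The median of all genes was then -0.88 and -0.80.

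Of the small classes, carriers of peptides and lysosomal or vesicular cargo (4 genes) and of lipids and acetyl-CoA (4 genes) had 1 higher and 3 lower gene each in both genotypes. The 5 nucleotide sugar carriers had 1 higher and 4 lower in KO cells and 1 and 3 in WT cells, and the 4 nucleoside and nucleobase carriers 1 and 2 in KO cells and 1 and 3 in WT cells. Among all genes 40.0% were higher and 46.2% lower in KO and 40.7% and 44.7% in WT cells. Slc66a2 fell furthest of these, with 5.53, 4.8, 6.37, 5.86 and 5.31 CPM in KO LPS and 9.59, 5.21, 7.77, 8.87 and 6.94 CPM in WT LPS libraries, against 84.2, 87.1, 82.3 and 88.9 CPM in KO control and 74.7, 80.7, 72 and 73.5 CPM in WT control libraries. Its log2 fold change was -3.94 ± 0.11 in KO and -3.29 ± 0.11 in WT cells. The nucleoside carrier Slc29a1 fell by 2.22 and 1.84, and the nucleobase carrier Slc43a3 rose by 0.79 and 0.45. With library totals as the scale Slc43a3 was not called in KO cells and was at -0.29 in WT cells. Slc29a3, the nucleoside exporter of lysosomes, fell in WT cells by 0.44 and had -0.16 in KO cells. Slc35a1, which loads the Golgi with CMP-sialic acid, fell by 2.36 and 2.00, and Slc35a3, the carrier of UDP-N-acetylglucosamine, rose by 0.46 and 0.26, which became -0.32 and -0.49 on the scale of library totals. Slc33a1, which brings acetyl-CoA into the endoplasmic reticulum, rose by 1.38 and 1.66, and the fatty acid carrier Slc27a1 fell by 2.42 and 2.15. The phosphate importers split. Slc20a1 fell by 0.45 and 0.42, and Slc20a2 rose by 0.56 and 0.21, or -0.22 and -0.53 with library totals. Among the 4 genes that encode no carrier, the scaffold gene Slc9a3r2 fell by 4.53 and 4.21 and Slc9a3r1 rose by 0.92 and 0.82. Slc9a3r2 passed the mean count through its controls, so the rule favours its fall. Both calls of Slc9a3r1 were lost with library totals as the scale.

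The second question is how KO and WT cells differed under LPS. Of the 159 genes, 8 were higher and 14 lower in KO cells, which is 5.03% and 8.81% of them, against 5.30% higher and 5.50% lower of all genes tested. None reached 2-fold, against 0.142% higher and 0.375% lower of all genes. The median log2 fold change was -0.05 over the 159 and -0.02 over all genes. For 12 of the 22, 4 higher and 8 lower, no KO library overlapped a WT library. Of all genes this held for 312 of the 635 called higher and 329 of the 659 called lower. These are 2.60% and 2.74% of all genes tested, called or not. WT LPS replicate 2 was the WT library nearest to the KO libraries in 11 of the 22, and 7 of the 10 genes that overlapped did not do so without it. Neither count was made for all genes, so neither is a trait of solute carriers. Leaving it out gave 17 higher and 26 lower solute carriers, when 13.8% and 14.2% of all genes were called. With only the 10 LPS libraries in the fit, 5 were higher and 9 lower. Of the called genes that reached 5 CPM, Slc22a5, Slc29a3, Slc46a3, Slc66a2, Slc9a9, Slc25a45 and Slc9a3r1 were not among them. Slc14a1 and Slc50a1, under 5 CPM with LPS, were not followed singly in that fit. The share of all genes called in it was not counted.

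**Figure D4:**
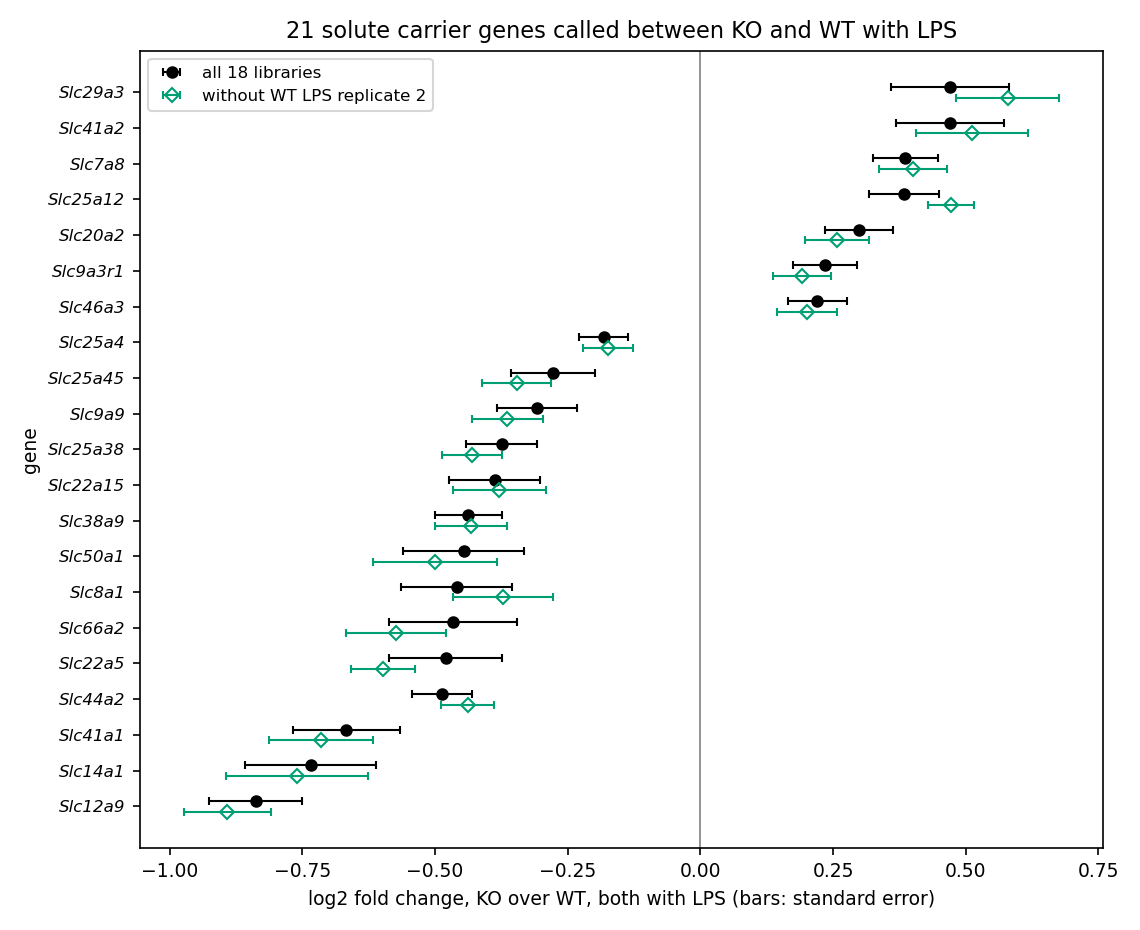
Log2 fold change of KO over WT with LPS for 21 of the 22 called genes, with standard errors, from all 18 libraries (filled circles) and without WT LPS replicate 2 (open diamonds). All 21 keep their direction without that library. They were chosen from the fit that holds it, so this is no check on the calls. Slc12a9 has the lowest value, -0.84 with all libraries.

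Slc12a9, a member of the cation and chloride cotransporter family, differed most. It had 23.6, 27.3, 28.1, 25.7 and 25.3 CPM in KO LPS libraries, against 42.2, 39.4, 58.5, 47.6 and 44.7 CPM in WT LPS libraries. No KO library reached the lowest WT library, with a log2 fold change of -0.84 ± 0.09 (edgeR adjusted p = 3.1e-06). In control samples KO libraries had 125, 127, 123 and 108 CPM and WT libraries 122, 138, 126 and 122 CPM, and the genotypes were not called different (-0.07 ± 0.09, edgeR adjusted p = 0.81). The fall with LPS was 2.22 in KO and 1.45 in WT cells, and the interaction, the difference of the LPS responses, was -0.77 ± 0.13 (edgeR adjusted p = 0.0017). Other ion carriers lower in KO cells with LPS were the sodium and calcium exchanger Slc8a1 (-0.46 ± 0.10) and the endosomal sodium and proton exchanger Slc9a9 (-0.31 ± 0.07), both with overlapping genotypes. Slc8a1 was at 47.8, 58.9, 44, 45.3 and 56.2 CPM in KO LPS libraries, against 58.5, 85.7, 64.6, 61.2 and 76.8 CPM in WT LPS libraries.

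Slc41a1, a magnesium carrier, had 21.1, 21.5, 26.3, 23.7 and 25 CPM in KO LPS libraries, against 34.9, 32.2, 43.6, 38.9 and 37.1 CPM in WT LPS libraries, with no overlap (-0.67 ± 0.10, edgeR adjusted p = 0.0002). Control libraries had 25.7, 31.4, 30.7 and 21.7 CPM in KO and 23.4, 28.1, 25.8 and 26.2 CPM in WT cells. The gene rose with LPS in WT cells by 0.53 and was not called in KO cells, at -0.22. With library totals as the scale it was called lower in KO cells and not called in WT cells, at -0.21. The interaction was -0.75 ± 0.15 (edgeR adjusted p = 0.0077). Its relative Slc41a2 was higher in KO cells, with 12.1, 9.84, 13.5, 12.6 and 11.7 CPM in KO LPS libraries, against 7.35, 9.65, 8.18, 9.68 and 8.31 CPM in WT LPS libraries (0.47 ± 0.10, edgeR adjusted p = 0.0054). The lowest KO library of Slc41a2, at 9.84 CPM, was close to the highest WT library, at 9.68 CPM.

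Among the 23 amino acid carriers, 1 was higher and 1 lower in KO cells with LPS, against 5.30% and 5.50% of all genes. Slc7a8 had 122, 99.1, 97, 111 and 114 CPM in KO LPS libraries, against 81.9, 86.5, 77.5, 78.5 and 91.1 CPM in WT LPS libraries, without overlap (0.39 ± 0.06, edgeR adjusted p = 0.00037). In control samples it had 24.1, 22.2, 23.9 and 22.3 CPM in KO and 20.5, 19.3, 20.7 and 20.8 CPM in WT libraries, again without overlap but not called (0.18 ± 0.07, edgeR adjusted p = 0.24). Slc38a9, whose promoter window is printed above, had 9.63, 10.3, 11.5, 9.82 and 10.7 CPM in KO LPS libraries, against 13, 14.3, 14.9, 14.4 and 14 CPM in WT LPS libraries. The KO libraries were all lower (-0.44 ± 0.06, edgeR adjusted p = 0.00013). The control values were 34.2 ± 1.85 CPM in KO and 38 ± 1.99 CPM in WT cells, and neither that difference nor the interaction was called (edgeR adjusted p = 0.26 and 0.071). Slc3a2, Slc7a5, Slc1a5, Slc38a1 and Slc38a2 were not called between genotypes with LPS, with log2 fold changes of 0.04, -0.07, -0.03, -0.18 and 0.07.

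The choline carrier family member Slc44a2 had 38.5, 40.3, 36.3, 36.2 and 39.6 CPM in KO LPS libraries, against 51.6, 60.5, 49.5, 50.0 and 55.9 CPM in WT LPS libraries. The genotypes did not overlap (-0.49 ± 0.06, edgeR adjusted p = 1.3e-05), and the interaction was -0.39 ± 0.08 (edgeR adjusted p = 0.012). In control samples Slc44a2 had 66.5, 66.9, 68.1 and 61.2 CPM in KO and 71.7, 70.8, 68.2 and 69.1 CPM in WT libraries, a difference that was not called (-0.09). The 3 organic ion carriers Slc22a5, Slc22a15 and Slc14a1 were lower in KO cells, by 0.48, 0.39 and 0.73 on the log2 scale. For Slc22a5, whose values are given above, WT replicate 2 lay below all 5 KO libraries and the other 4 WT libraries above all of them. Its interaction was -0.62 ± 0.16 (edgeR adjusted p = 0.04). Slc22a15 had 16.5, 15.8, 13.3, 15 and 16.9 CPM in KO LPS libraries, against 20.6, 20.8, 17.6, 21.2 and 21.2 CPM in WT LPS libraries, all KO values being lower. Slc14a1 had 1.89, 2.18, 2.22, 2.05 and 2.46 CPM in KO LPS libraries, against 4.75, 3.32, 3.23, 3.02 and 3.66 CPM in WT LPS libraries, and was under 5 CPM in both.

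Of the 36 mitochondrial carriers, 2 were higher and 3 lower in KO cells with LPS, against 5.30% and 5.50% of all genes. Slc25a12, the aspartate and glutamate exchanger of the malate-aspartate shuttle, had 193, 170.3, 177, 187 and 175 CPM in KO LPS libraries, against 129, 171, 130.0, 125 and 136 CPM in WT LPS libraries. WT replicate 2 lay within the KO range and the other 4 WT libraries below it (0.38 ± 0.07, edgeR adjusted p = 0.00075). Slc25a38, the glycine carrier of heme synthesis, had 48.4, 57.6, 56.7, 51.7 and 54 CPM in KO LPS libraries, against 77, 58.5, 75.5, 71 and 65.8 CPM in WT LPS libraries (-0.37 ± 0.07, edgeR adjusted p = 0.001). Its controls had 42.6 ± 0.961 CPM in KO and 42.9 ± 2.06 CPM in WT cells. Slc25a4 was lower by 0.18 without overlap, at 58.4 ± 2.88 CPM in KO LPS and 66.3 ± 2.21 CPM in WT LPS cells, and Slc25a45 lower by 0.28 with overlap, a call lost in 6 of 18 fits that left out 1 library.

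The phosphate importer Slc20a2 was higher in KO cells, at 25, 25.7, 26.2, 26.7 and 27.3 CPM in KO LPS libraries, against 22.4, 18.7, 21.9, 21.7 and 21.5 CPM in WT LPS libraries (0.30 ± 0.06, edgeR adjusted p = 0.0048). The genotypes were apart, but with library totals as the scale the call was lost (edgeR adjusted p = 0.073). The interaction of Slc20a2, at 0.35 ± 0.09, was the only positive one called (edgeR adjusted p = 0.043). Slc29a3 had 65.5, 50.8, 48.2, 58.4 and 60.5 CPM in KO LPS libraries, against 35.9, 52.9, 36.6, 34.3 and 45 CPM in WT LPS libraries (0.47 ± 0.11, edgeR adjusted p = 0.0092). The groups overlapped through WT replicate 2. Slc46a3 was higher in KO LPS cells by 0.22 and the scaffold gene Slc9a3r1 by 0.23, both with overlap. Both calls were lost with library totals as the scale and with only the LPS libraries in the fit. The edgeR adjusted p was then up to 0.19 for Slc46a3 and 0.17 for Slc9a3r1. Slc66a2 and Slc50a1 were lower by 0.47 and 0.45, and had LPS means of 5.58 and 2.37 CPM in KO, against 7.67 and 3.23 CPM in WT cells. The 13 monocyte and macrophage markers, none at 0, lay between 1311 and 2011 CPM in KO LPS and 1485 and 1930 CPM in WT LPS libraries. Of them 0 were called higher and 1 lower in KO cells with LPS. Of the 12 cDC1 markers 2 were higher and 5 lower, against 5.30% and 5.50% of all genes. Their interaction was positive for 0 and negative for 3, against 1.03% and 2.79% of all genes. The part of either set of cells in these differences was not tested.

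**Figure D5:**
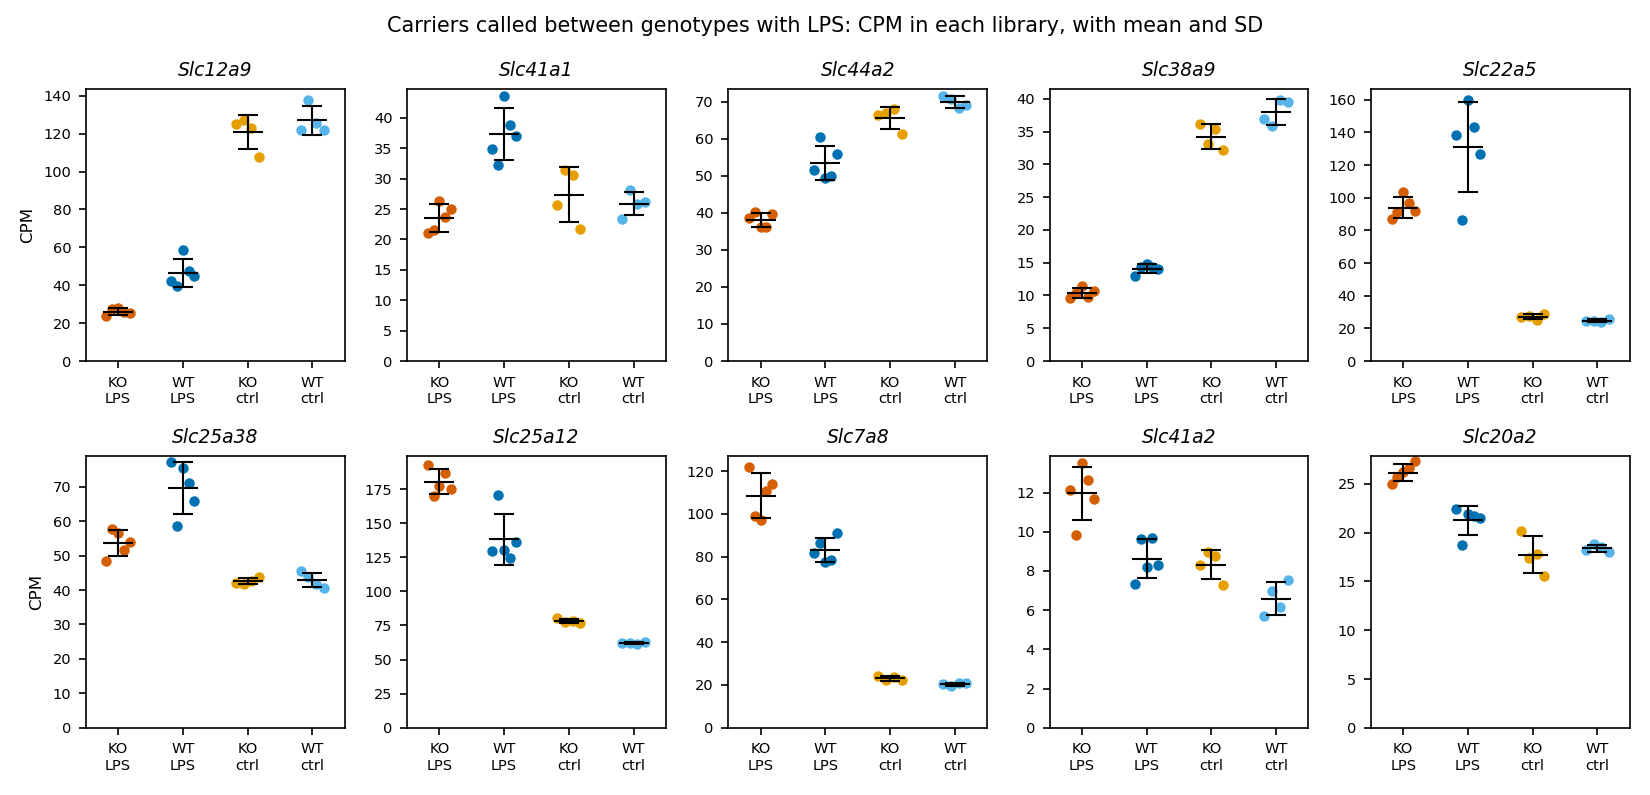
CPM of 10 carriers called between KO and WT cells with LPS, in each library, on linear axes from 0, with group mean and SD (KO LPS n = 5, WT LPS n = 5, KO control n = 4, WT control n = 4). Slc12a9, Slc41a1, Slc44a2 and Slc38a9 lie lower in every KO LPS library than in any WT LPS library, while Slc25a12 is also higher in every KO control library than in any WT control library.

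The third question is how the genotypes differed without LPS. Of the 159 genes, 1 was higher and 0 lower in KO control cells, against 1.89% higher and 0.525% lower of all genes tested with edgeR. The gene was Slc25a12, with 80.4, 77.4, 78.1 and 77 CPM in KO control libraries, against 62.5, 62.3, 61.1 and 63.1 CPM in WT control libraries, a log2 fold change of 0.33 ± 0.07 (edgeR adjusted p = 0.02). Leaving out 1 control library ended this call in 6 of 8 cases, with an edgeR adjusted p of up to 0.084. At an unadjusted p under 0.05, 13 genes were higher and 5 lower, against 9.04% and 4.85% of all genes. DESeq2 called 2 higher and 1 lower, limma-voom 1 of each, and both called Slc25a12. With sets of 4 consecutive library numbers as a block, 4 were higher and 1 lower, against 3.76% and 1.36% of all genes. Slc40a1 had 10.6, 7.11, 8.39 and 11.3 CPM in KO control and 7.16, 4.73, 5.42 and 8.51 CPM in WT control libraries and was not called (0.54 ± 0.18, edgeR adjusted p = 0.14).

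The interaction asks whether the LPS response differed between genotypes. It was positive for 1 and negative for 8 of the 159 genes, against 1.03% and 2.79% of all genes. The negative ones were Slc12a9, Slc41a1, Slc66a2, Slc22a5, Slc50a1, Slc44a2, Slc25a38 and Slc25a4, from -0.77 to -0.28. Slc12a9, Slc66a2, Slc50a1, Slc44a2 and Slc25a4 fell with LPS in both genotypes, and further in KO cells. Slc22a5 and Slc25a38 rose in both, by 1.79 and 0.33 in KO and by 2.41 and 0.70 in WT cells. With library totals as the scale Slc25a38 was at -0.45 in KO and -0.04 in WT cells. The calls of Slc12a9, Slc41a1 and Slc44a2 held in each fit that left out 1 library, and those of the other 6 were lost in at least 2 of 18. Slc22a5 lost its call in 16 of them, Slc25a38 in 14 and Slc20a2 in 13. Leaving out WT LPS replicate 2 gave 5 positive and 19 negative genes, when 4.48% and 8.06% of all genes were called. Leaving out both replicate 2 LPS libraries, an alternative chosen after seeing the data, gave 11 and 14, against 6.90% and 6.41% of all genes. With sets of 4 consecutive library numbers as a block, 3 were positive and 13 negative, against 2.09% and 5.27% of all genes.

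Carriers without an Slc number in the pattern, such as the Slc35b to Slc35g and organic anion families, and the proteins that accompany carriers were counted as a further list. Of 37 tested genes, 16 were higher and 19 lower with LPS in KO cells and 14 were higher and 18 lower in WT cells. The shares of all genes were 40.0% higher and 46.2% lower in KO and 40.7% and 44.7% in WT cells. Between genotypes with LPS, 3 of the 37 were higher and 3 lower in KO cells, against 5.30% and 5.50% of all genes. Slco4a1, of the organic anion transporters, was higher, at 15.0 CPM in KO LPS and 8.20 CPM in WT LPS cells (log2 fold change 0.86), and Emb, a chaperone of lactate carriers, was lower, at 13.7 CPM in KO LPS and 20.4 CPM in WT LPS cells (-0.57). Of 3 tested genes of zinc handling, 3 were higher with LPS in WT cells, and 1 was higher and 1 lower in KO cells. Between genotypes with LPS 0 were higher and 1 was lower in KO cells, against 5.30% and 5.50% of all genes. The lower gene was the metallothionein Mt1, a zinc-binding protein, with 25.7 CPM in KO LPS and 39.6 CPM in WT LPS cells (-0.62). Of the 13 iron genes Ncoa4, which delivers ferritin to lysosomes, was higher by 0.37 in KO LPS cells. Cystine and glutathione had 0 higher and 2 lower of 15 genes there, and amino acid supply and sensing 2 and 0 of 29. Called interactions were 0 positive and 2 negative for cystine and glutathione, 1 and 0 for amino acid supply and sensing, 0 and 1 for zinc and 0 for iron. The list of 37 had 2 and 1. The shares for all genes were 1.03% positive and 2.79% negative.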

How the data were processed

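RNA of XCR1-purified mouse bone marrow-derived dendritic cells was sequenced as 150-base pairs on DNBSEQ, per the labels' protocols and the series' design text. HISAT and Bowtie2 were used with build GRCm39, per the submitters' processing notes; versions, annotation and counting settings are not stated there. Per the file headers, the authors deposited an estimated count, a TPM and an FPKM value for each of 16614 genes in 18 libraries. Of the deposited estimated counts, 6.37% were not whole at a tolerance of 0.001, and they were rounded. TPM deposited by the authors served only to compare levels between genes within a group, and the deposited FPKM values were not used. Library totals of 25590104 to 27375189 counts set the precision, and intervals of counting alone are not given because replicates spread more.

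Genes passed edgeR's filter (minimum count 10, minimum total 15; 11989 genes) and were scaled by TMM. A quasi-likelihood model (edgeR 4.0.16, R 4.3.3) of the 18 libraries together, 1 mean per group, gave 5 contrasts, LPS against control in each genotype, KO against WT in each treatment and the interaction. Calls are at a Benjamini-Hochberg adjusted p under 0.05 over all genes, and standard errors come from the F statistic. Alternatives were RLE (DESeq2's size factors) and total-count scaling, no filter, a minimum mean of 100, DESeq2 1.42.0, limma-voom 3.58.1, fits of the contrast's groups alone, blocks and leaving out each library.

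The members, classes, lists and the rule for named genes were chosen with earlier results of these data known. Slc7a6os was set apart as no carrier after its row was seen. Genes named are a list of 23, of which Slc46a1 is no member and not reported, the 3 highest and 3 lowest called genes of each class that reach 5 CPM for LPS, every called gene between genotypes, the 10 highest by TPM, and called extremes of each list. A few genes that the rule names are not reported here. Promoter windows came from RefSeq (GRCm38.p6), and the 4 printed, like the motifs, were chosen after the calls were seen.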

Additional observations from a re-analysis of the deposited data

Results flagged for a closer look

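Of the 316 pairs of a gene and a group looked at among 79 named genes, 24 held a library whose gap to the nearest other library passed Dixon's 95% limit, and chance alone flags about 1 in 20 groups. Replicate 2 of WT LPS stood apart for Slc25a12 at 171.0 CPM and Slc43a2 at 13.59 CPM, both highest. It was the lowest of its group for Slc20a2 at 18.74 CPM, Slc52a2 at 3.575 CPM and Slc52a3 at 12.31 CPM. Replicate 2 of KO LPS was highest for Slc3a2 at 185.2 CPM, Slc7a11 at 18.0 CPM and Slc29a1 at 8.458 CPM, and lowest for Slc9a3r1 at 75.43 CPM. Replicate 4 of KO control was lowest for Slc29a3 at 53.96 CPM, Slc36a1 at 15.2 CPM and Slc41a3 at 15.15 CPM. Replicate 3 of KO LPS was highest for Slc37a3 at 45.35 CPM. In WT LPS, replicate 3 was highest for Slc4a2 at 111.4 CPM and lowest for Slc22a15 at 17.64 CPM. Replicate 1 of WT LPS was highest for Slc48a1 at 34.22 CPM and lowest for Slc39a10 at 7.928 CPM. Replicate 1 of KO control was lowest for Slc39a1 at 64.37 CPM and highest for Slc52a2 at 17.1 CPM. In WT control, replicate 1 was highest for Slc16a13 at 11.36 CPM and lowest for Slc6a6 at 376.0 CPM. Replicate 2 of WT control was highest for Slc29a1 at 27.92 CPM and Slc9a3r2 at 12.59 CPM, and replicate 4 lowest for Slc4a1ap at 28.73 CPM.

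The LPS response differed between KO and WT cells for 9 named genes by the interaction term of edgeR. The log2 values were -0.77 for Slc12a9, -0.75 for Slc41a1, -0.65 for Slc66a2, -0.62 for Slc22a5, -0.58 for Slc50a1, -0.39 for Slc44a2, -0.36 for Slc25a38, -0.28 for Slc25a4 and 0.35 for Slc20a2.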

How the results depend on the processing

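With RLE scaling, no filter, DESeq2 or limma-voom, the numbers of solute carriers called for LPS and between genotypes with LPS stayed within 1.5 times those of the report. Total-count scaling gave 23 higher and 123 lower genes for LPS in KO, 21 and 120 in WT, 4 higher and 20 lower in KO against WT with LPS, and 0 positive interactions. Under it LPS rises given in the report turned negative. In KO cells these were Slc35a3 (-0.32), Slc20a2 (-0.22), Slc26a2 (-0.25), Slc4a8 (-0.34), Slc37a2 (-0.41), Slc44a1 (-0.31), Slc25a38 (-0.45) and Slc30a1 (-0.42). In WT cells they were Slc43a3 (-0.29), Slc35a3 (-0.49), Slc20a2 (-0.53), Slc26a2 (-0.26), Slc37a2 (-0.36), Slc37a3 (-0.49), Slc44a1 (-0.19), Slc38a2 (-0.19), Slc39a14 (-0.54), Slc23a2 (-0.23), Slc25a38 (-0.04), Slc41a1 (-0.21) and Slc30a1 (-0.28). Other rises kept their sign but were no longer called. These were Slc66a1, Slc4a2 and Slc9a3r1 in both genotypes, Slc38a2, Slc43a3, Slc23a2 and Slc25a20 in KO cells, and Slc4a8 and Slc7a5 in WT cells. Genes given as not called for LPS could be called lower under it. Slc46a3 and Slc6a8 were in both genotypes, and Slc11a1, Slc39a14, Slc37a3 and Slc29a3 in KO cells. That scaling moved the median LPS change of all genes by -0.78 in KO and -0.74 in WT cells. Fits of the contrast's groups alone gave 5 higher and 9 lower genes in KO against WT with LPS and 3 and 4 in control samples. In control samples DESeq2 gave 2 higher and 1 lower and limma-voom 1 of each. Positive interactions numbered 2 with DESeq2 and 0 without the filter. Leaving out both replicate 2 LPS libraries, chosen after seeing the data, gave 16 higher and 24 lower genes between genotypes with LPS (14.7% and 12.4% of all genes), 3 and 3 in control samples and 11 positive and 14 negative interactions. Outside total-count scaling the causes were not tested.

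Replicate numbers are shared between groups, but deviations of same-numbered libraries correlated by 0.01 to 0.35 between KO LPS and WT LPS, by 0.03 to 0.25 between the controls, by -0.11 to 0.11 between KO LPS and KO control and by -0.22 to 0.27 between WT LPS and WT control, and the labels state no shared origin, so the numbers were not taken as pairs. Libraries of 1 set of 4 consecutive numbers correlated by 0.14 to 0.27 between WT LPS and WT control and by -0.03 to 0.14 between KO LPS and KO control. After replicate 1 these sets join other replicate numbers of LPS and control. Libraries that share neither had medians of -0.05 between KO LPS and WT LPS and -0.05 between the controls. For LPS and control they were 0.01 in KO and -0.07 in WT. The main fit took all libraries as independent. A replicate block gave 2 higher genes in control samples and 0 positive interactions. With sets of 4 consecutive library numbers as a block, control samples gave 4 higher and 1 lower and the interaction 3 positive and 13 negative genes. Between genotypes with LPS that fit gave 10 higher and 18 lower, against 8.05% and 7.92% of all genes. Leaving out each library in turn gave 53 to 57 higher and 78 to 81 lower genes for LPS in KO, 57 to 62 and 78 to 81 in WT, 8 to 17 and 12 to 26 between genotypes with LPS, 0 to 3 and 0 to 3 in control samples, and 0 to 5 positive and 3 to 19 negative interactions. Of the counts with 1 library left out, the highest between genotypes and for the interaction were those without WT LPS replicate 2. Without KO LPS replicate 2, 10 were higher and 20 lower in KO than in WT cells with LPS, against 5.65% and 5.92% of all genes. Over the fits without 1 library, 3.22% to 13.8% of all genes were higher and 3.5% to 14.2% lower between genotypes with LPS. In control samples these shares were 0.779% to 4.02% and 0.166% to 2.26%, and for the interaction 0.365% to 4.48% and 1.36% to 8.06%. For LPS they were 39.1% to 40.6% and 45.4% to 47.1% in KO cells. In WT cells they were 39.9% to 40.9% and 43.8% to 44.9%. Genes under 5 CPM rest on fewer counts, and a difference that missed the threshold is not shown to be absent.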
